A study of Mus musculus with 6 samples.

Results

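The genes described here are 39 genes of the presynaptic vesicle release machinery, out of 14824 genes listed for the primary somatosensory (S1) cortex of the mouse. They were chosen by gene name. Among them Unc13c was noticed for a large difference between stimulated and non-stimulated cortex in these same data, so its difference is given as a description with no test. All 39 were listed and all 39 passed edgeR's filter on low counts, which left 13747 genes to test.

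The RNA was that of whole S1 cortex from WT C57B6 mice at postnatal day 21. There were 3 libraries with whisker stimulation (WS) and 3 libraries without it (NS), the tissue being taken 90 minutes after the last stimulation. Stimulation was given for 15 minutes a day over 8 days, and the study's NS tissue is the cortex of the side that was not stimulated. The labels do not say which libraries came from which animals, so the p-values measure the spread between these libraries, which may be technical. RNA was accepted at an integrity number above 2, and the value of each sample was not given in the sources used here.

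A synaptic vesicle is filled with transmitter, docked at the active zone, primed and then fused with the plasma membrane when calcium enters the terminal. Fusion is driven by the SNARE proteins, timed by calcium sensors of the synaptotagmin type, held ready by complexins and Munc13 proteins, and reversed by NSF and its adaptors, while large scaffold proteins such as Bassoon, Piccolo and the RIMs hold the site together. In the barrel cortex these proteins act in the terminals of local excitatory and inhibitory neurons.

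Levels are given as CPM, estimated counts scaled by edgeR to a library size normalized with its TMM method. The counts summed to between 15660395 and 17276168 per library. The members had between 68.2 and 43190 counts on average, and together they took between 1.96% and 2.05% of all counts in each of the 6 libraries. A change in such bulk tissue cannot tell fewer cells of a type from less RNA per cell. Of the 15 possible pairs of libraries, WS replicate 1 and WS replicate 3 were the least alike (chi-square of 21.5 per degree of freedom, where the other pairs gave 4.49 to 12.9), and the members were read with this in mind.

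Leaving Unc13c aside, no gene of the release machinery passed the test of WS against NS, and most lay close to their NS level. By the quasi-likelihood test of edgeR, adjusted after Benjamini and Hochberg over 13747 genes, 0 of the 38 members other than Unc13c had an adjusted p under 0.05, against 5 of all genes tested (0.0364%). With the replicate block the counts were 0 of these 38 and 11 of all genes (0.08%), and by DESeq2 they were 0 of these 38 and 8 of all genes (0.0582%). At an unadjusted p under 0.05 there was 1 member, Sv2b, by edgeR, where 1.19% of all genes passed. Again without Unc13c, DESeq2 gave Sv2b at that level (0.611% of all genes) and the block gave Syt17 (1.77% of all genes). Taken by the same-numbered pairs, 3 members were higher in WS in every pair (Syt2, Rph3a and Vamp1, against 9.82% of all genes) and 6 were lower in every pair (Syn2, Sv2b, Syt1, Syt17, Snap25 and Nsf, against 8.57% of all genes). Of the 39 members, 19 had a log2 fold change above 0 and 20 below 0, and the median was -0.0082. Over all genes tested, 53% lay above 0 and the median was 0.0074. The members' log2 fold changes ran from -0.24 in Syt10 to 0.41 in Unc13c. In 11 members the absolute value was over 0.1 (34.2% of all genes), and in 4 (Sv2c, Syt10, Syt17 and Unc13c) it was over 0.2 (11.6% of all genes).

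The precision behind these values can be read from the 95% intervals of the fit. In 27 of the 39 members the interval lay within 0.3 of 0 on the log2 scale, and in 36 it lay within 0.5. The standard error had a median of 0.09. For the 38 members other than Unc13c, a log2 fold change of 1, which the study asked of a changed gene, was outside the interval, while small changes of about 0.1 were not detectable with 3 libraries a group.

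**Figure D1:**
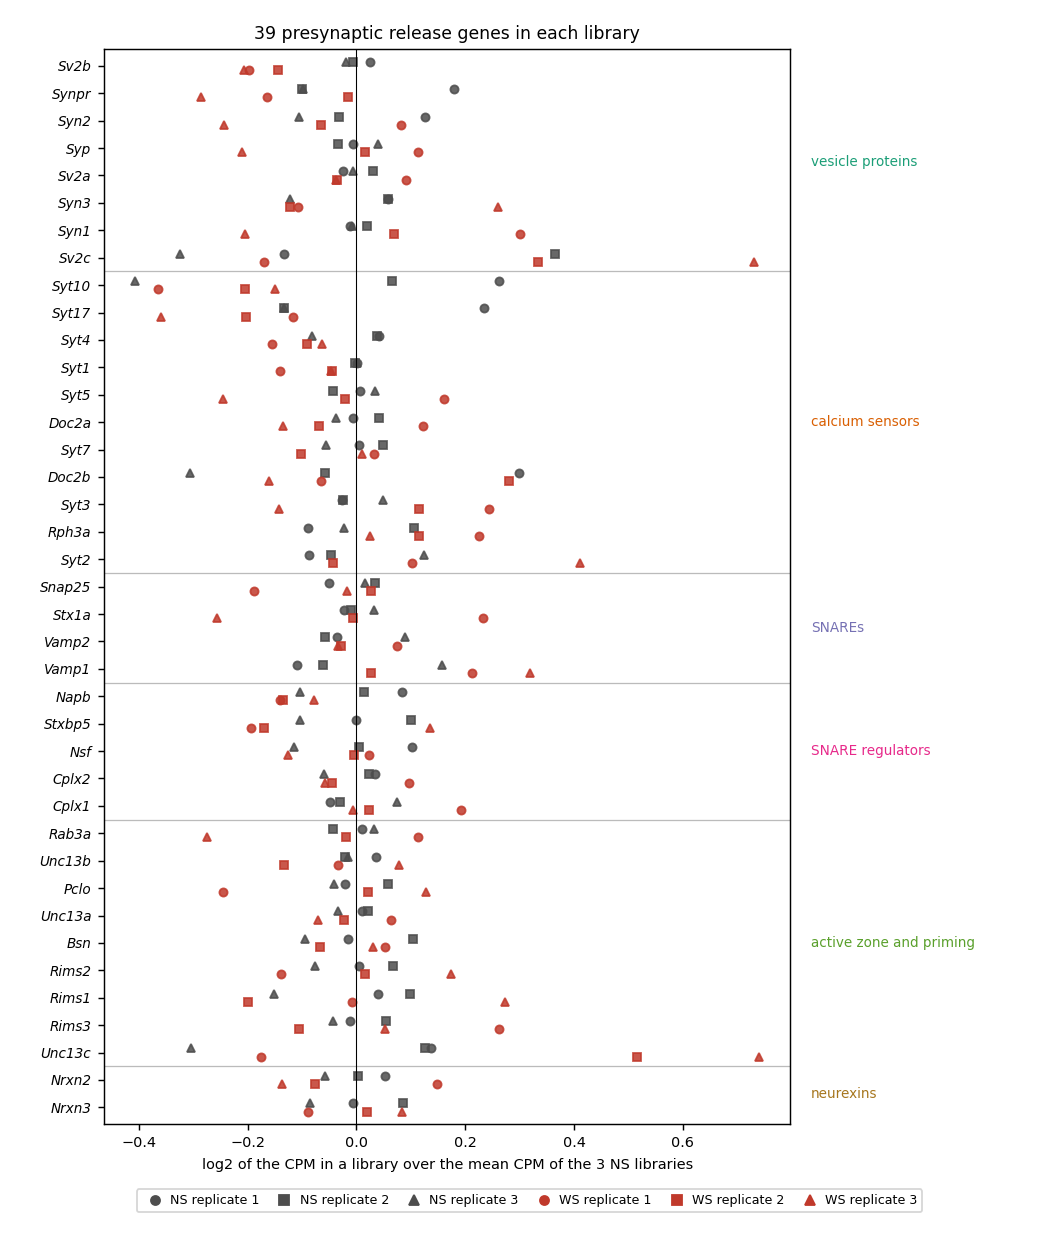
Level of each of the 39 members in each library, as the log2 of its CPM over the mean of the 3 NS libraries (horizontal axis), with NS in grey and WS in red, symbols for the replicates, and genes grouped by role. WS replicates 1 and 3 lie at opposite ends in 13 rows, and the groups do not overlap in Sv2b and Syt1.

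**Figure D2:**
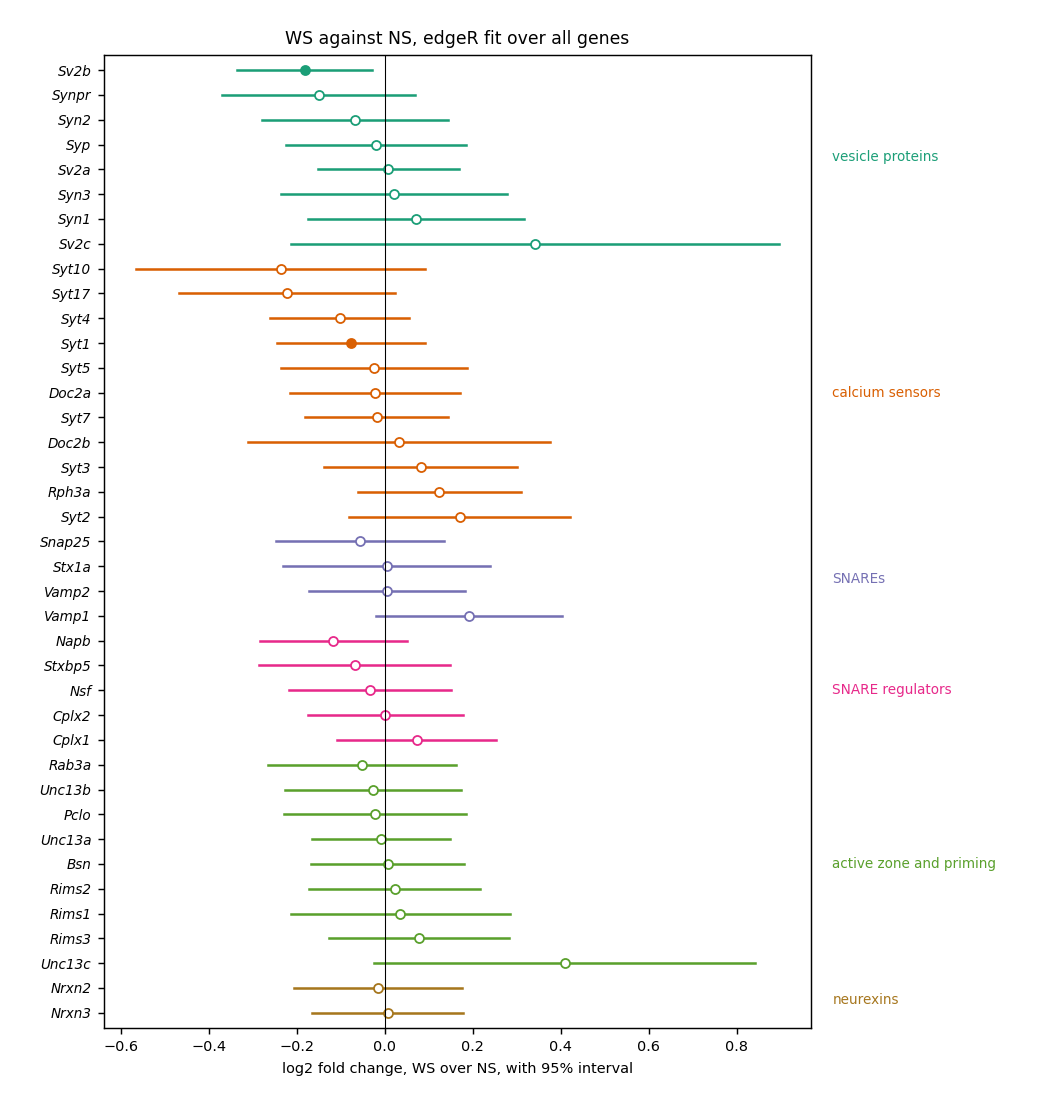
The log2 fold change of WS over NS for each member (points) with its 95% interval (lines) from the edgeR fit over all genes, coloured by role. Filled points mark the 2 members in which no WS library reaches the range of the NS libraries. The interval of Sv2b ends below 0 and the other 38 include 0.

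Unc13c encodes Munc13-3, a member of the Munc13 family that prepares docked vesicles for fusion, and is best known from the cerebellum. The gene lies on the minus strand of chromosome 9 (GRCm38, 73479422 to 73968966). Its level was 28.3, 28.1 and 20.9 CPM in NS replicates 1, 2 and 3, from 449, 450 and 336 counts. In WS replicates 1, 2 and 3 it was 22.8, 36.8 and 43.0 CPM, from 385, 595 and 681 counts. WS replicates 2 and 3 therefore stood above every NS library, while WS replicate 1 lay inside the NS range, so the groups overlapped. The mean was 25.8 CPM ± 4.23 (SD, n = 3) in NS and 34.2 CPM ± 10.4 (SD, n = 3) in WS.

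The log2 fold change of Unc13c was 0.41 (SE 0.20, 95% interval -0.03 to 0.84). It was the value that singled the gene out, so it is a description. The size rested on single libraries, since it was 0.63 without WS replicate 1 and 0.21 without WS replicate 3. Under the replicate block it was 0.38. In the annotation 4 other genes overlap Unc13c on the same strand, and whether the counting could split their reads is not given in the sources used here.

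The other Munc13 genes lay near 0. Unc13a, which encodes the main priming factor of cortical excitatory synapses, had a log2 fold change of -0.01 (95% interval -0.17 to 0.15). Unc13b, a Munc13 of a subset of synapses, had one of -0.03 (95% interval -0.23 to 0.17). Per kilobase of exon, Unc13a was the leading member, with 25.7 CPM per kilobase in NS, against 2.93 for Unc13c and 1.72 for Unc13b. Unc13c made up 10.4%, 10.3% and 8.14% of the summed Munc13 level in NS replicates 1 to 3, and 8.34%, 13.5% and 15.7% in WS replicates 1 to 3. This share, which does not depend on the scaling between libraries, overlapped between the groups in the same way as the level.

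Since Unc13c is strongly expressed in cerebellar granule cells, the markers of that cell type were read beside it. Cbln3 had 6 to 18 counts per library and Fat2 had 1 to 5, both near 0 in all 6 libraries and both below the filter, and Gabra6 was not analysed here. The 5 analysed markers of the list summed to 51.8 to 59.4 CPM in NS and 50.5 to 60.8 CPM in WS, nearly all of it from Zic1, Zic2 and Neurod1. Their part in the level of Unc13c was not tested.

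Sv2b was the member with the clearest separation. It encodes synaptic vesicle glycoprotein 2B, a transporter-like membrane protein of vesicles, and lies on the minus strand of chromosome 7 (GRCm38, 75114894 to 75309262). Its level was 574, 562 and 557 CPM in NS replicates 1, 2 and 3, and 492, 511 and 489 CPM in WS replicates 1, 2 and 3. Every WS library lay below every NS library, with a mean of 564 CPM ± 8.97 (SD, n = 3) in NS and 497 CPM ± 11.8 (SD, n = 3) in WS. The log2 fold change was -0.18 (SE 0.07, 95% interval -0.34 to -0.03), with an unadjusted p of 0.023 and an adjusted p of 0.9998 in the edgeR fit over all genes. It thus did not pass the correction, although 3 of 3 WS libraries were lower. Leaving out each library in turn gave values between -0.21 and -0.17, but the unadjusted p was no longer under 0.05 without NS replicate 1, 2 or 3, or under the replicate block.

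The groups did not overlap in 2 of 39 members, against 6.27% of all genes tested, and both members were lower in WS, as were 3.16% of all genes. The other one was Syt1, the fast calcium sensor of cortical terminals, on the minus strand of chromosome 10 (GRCm38, 108497650 to 109010982). Its level was 1849, 1844 and 1849 CPM in NS replicates 1, 2 and 3, and 1675, 1791 and 1788 CPM in the WS replicates. The 3 NS libraries were nearly equal (SD of 2.69 CPM), which left room for a small difference to separate the groups. The log2 fold change was -0.08 (95% interval -0.24 to 0.09) and was -0.0456 without WS replicate 1, and the adjusted p was 0.9998 in edgeR's test.

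**Figure D3:**
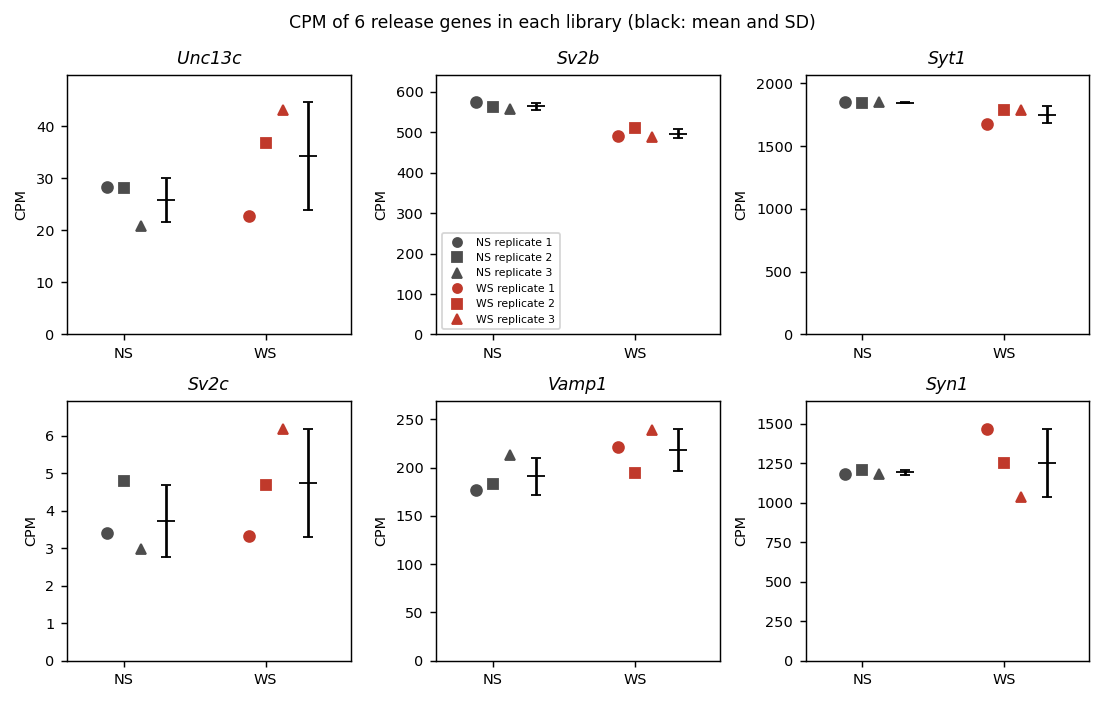
CPM (vertical axis, from 0) of 6 members in each library, NS in grey and WS in red, with the mean and SD of the 3 libraries in black. Unc13c and Sv2c are widest in WS, Sv2b and Syt1 do not overlap between the groups, and Syn1 spreads from 1034 to 1469 CPM within WS while its NS libraries lie between 1182 and 1208.

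The RefSeq windows from 250 bases before to 50 bases after each annotated start (build GRCm38.p6) were read for these genes, and 28 of the 39 members had at least 1 window, 40 in all. The parts before the start are shown for Unc13c and Sv2b, which carry the differences above, and for Syn1, the member with the widest gap between WS replicates 1 and 3 in the upward direction and the one window with a full cAMP response element (CRE), the site that the activity-regulated factor CREB binds. All lie on the minus strand and are written 5′ to 3′. Capitals mark the motifs searched on both strands, which were the CRE TGACGTCA, its shorter core CGTCA (contained in the full site) and the GC box GGGCGG. For Sv2b the most upstream of 4 windows is shown, and for Syn1 the part outside the annotated gene.
Unc13c, chr9:73969038-73969287: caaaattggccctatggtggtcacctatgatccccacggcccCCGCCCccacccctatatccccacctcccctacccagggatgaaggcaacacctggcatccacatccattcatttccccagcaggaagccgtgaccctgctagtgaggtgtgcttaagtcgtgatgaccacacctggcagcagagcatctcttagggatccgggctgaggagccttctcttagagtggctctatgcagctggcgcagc
Sv2b, chr7:75309263-75309512: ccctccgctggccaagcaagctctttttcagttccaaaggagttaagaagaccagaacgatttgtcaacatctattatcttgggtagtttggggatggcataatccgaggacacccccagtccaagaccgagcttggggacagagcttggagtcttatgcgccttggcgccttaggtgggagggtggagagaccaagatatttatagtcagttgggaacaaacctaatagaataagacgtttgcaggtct
Syn1, chrX:20921005-20921168: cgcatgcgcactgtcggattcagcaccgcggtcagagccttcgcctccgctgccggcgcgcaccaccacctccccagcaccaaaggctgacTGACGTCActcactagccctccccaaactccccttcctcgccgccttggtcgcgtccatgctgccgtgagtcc

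Across the whole windows, the full CRE stood in 1 of the 40 member windows (2.50%) and in 1.79% of 32851 windows of all genes. The shorter core stood in 7 member windows (17.5%), those of Cplx1, Rab3a, Stx1a, Syn1, Syt10, Syt2 and Unc13a, and in 20.8% of all windows. The GC box stood in 23 of the 40 (57.5%) and in 35.7% of all windows, where the member windows also had a higher GC content, with a median of 61.7% against 52.7%. The Unc13c window holds 1 GC box on the other strand, and that of Sv2b holds its GC box after the start, outside the stretch shown. A match is a description of the letters only.

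Vesicle proteins were the first of 6 roles, with 8 members, of which 4 had a log2 fold change above 0 and 4 below 0 (median -0.0065). Per kilobase the highest was Syn1, which encodes the phosphoprotein synapsin I that tethers vesicles to each other and to actin, at 361 CPM per kilobase ± 4.30 (SD, n = 3) in NS and 379 CPM per kilobase in WS, where the SD was larger than in NS. Its CPM was 1182, 1208 and 1185 in NS replicates 1, 2 and 3, and 1469, 1251 and 1034 in WS replicates 1, 2 and 3. The WS libraries lay on both sides of the NS libraries, and the log2 fold change was 0.07 (SE 0.11), turning to -0.06 without WS replicate 1. Syp, which encodes synaptophysin, an abundant vesicle membrane protein, stood at 324 CPM per kilobase in NS and 319 in WS and had the same order within WS, with 1826 CPM in replicate 1 and 1459 in replicate 3. Syn2 and Syn3, the other synapsins, had log2 fold changes of -0.07 and 0.02.

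Sv2c, the SV2 of basal ganglia and some other neurons, had the largest absolute log2 fold change of the role, 0.34, and the widest interval of all members (95% interval -0.21 to 0.90). It was also the lowest member, with 54, 77 and 48 counts in NS replicates 1, 2 and 3 and 56, 76 and 98 counts in the WS replicates. The NS and WS values interleaved except for WS replicate 3, and without it the log2 fold change was 0.10. Dropping NS replicate 3 gave 0.20, dropping NS replicate 2 gave 0.56 and dropping WS replicate 1 gave 0.54. Sv2a, which encodes the most widely expressed SV2 protein, had a log2 fold change of 0.01 (95% interval -0.15 to 0.17). Within the SV2 family, Sv2b took 40.8%, 39.4% and 39.8% of the level per kilobase in NS replicates 1 to 3, and 35.3%, 38.2% and 37.1% in WS replicates 1 to 3. Sv2a took the rest but for under 1% from Sv2c, with 59.0%, 60.4% and 60.1% in NS and 64.5%, 61.5% and 62.5% in WS. The groups did not overlap in either share, which follows from the lower level of Sv2b beside the near equal level of Sv2a. Synpr, which encodes synaptoporin, a relative of synaptophysin, had a log2 fold change of -0.15 (95% interval -0.37 to 0.07).

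Calcium sensors counted 11 members, 4 above 0 and 7 below 0 (median -0.02), with 0 adjusted calls. Syt1 was the highest per kilobase, at 222 CPM per kilobase in NS and 210 in WS, followed in NS by Rph3a, which encodes the Rab3 effector rabphilin (145), and Syt5, a synaptotagmin of vesicles and dense-core granules (81.0). Syt10, a synaptotagmin linked to peptide secretion, had the lowest fitted value of all members, -0.24 (95% interval -0.57 to 0.09). Its CPM was 27.6, 24.0 and 17.3 in NS replicates 1, 2 and 3 and 17.8, 19.9 and 20.7 in WS replicates 1, 2 and 3. NS replicate 3 was the lowest of the 6 libraries, so the groups overlapped, and the value moved between -0.40 and -0.09 as single libraries were left out, reaching -0.40 without NS replicate 3 and -0.09 without NS replicate 1.

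Syt17, an atypical synaptotagmin, stood at 76.5, 59.3 and 59.3 CPM in NS and 60.0, 56.5 and 50.7 CPM in WS (log2 fold change -0.22, 95% interval -0.47 to 0.02). NS replicate 1 lay alone at the top, and the WS library was the lower one in each of the 3 same-numbered pairs. Syt2, the fast sensor of parvalbumin interneurons and subcortical terminals, had 56.9, 58.5 and 65.8 CPM in NS and 64.9, 58.7 and 80.4 in WS (log2 fold change 0.17, 95% interval -0.08 to 0.42), with WS replicate 3 alone above the NS range. Syt4, which encodes a synaptotagmin that binds no calcium through its first C2 domain, had a log2 fold change of -0.10, and Syt7, the slow sensor of asynchronous release, had one of -0.02. Syt3 and Syt5 were at 0.08 and -0.03. Doc2a and Doc2b, which encode high-affinity sensors linked to spontaneous release, were at -0.02 and 0.03, and Rph3a at 0.12. All these intervals included 0.

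SNAREs counted 4 members, 3 above 0 and 1 below 0 (median 0.0045). Vamp2, which encodes the main vesicular SNARE synaptobrevin 2, had the highest level of all members per kilobase, 432 CPM per kilobase ± 23.9 (SD, n = 3) in NS and 433 ± 18.5 in WS, and a log2 fold change of 0.0049 (95% interval -0.17 to 0.18). Its 6 libraries lay between 1579 and 1748 CPM. Snap25, which encodes the membrane SNARE that pairs with it, lay at 2637, 2794 and 2759 CPM in NS and 2396, 2780 and 2699 CPM in WS, with only WS replicate 1 outside the NS range. Stx1a, which encodes the third SNARE partner syntaxin 1A, had group means of 438 and 439 CPM, although its WS libraries ran from 367 to 515 CPM.

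Vamp1, the synaptobrevin of fast-spiking interneurons and subcortical neurons, had the largest absolute log2 fold change of the SNAREs, 0.19 (SE 0.10, 95% interval -0.02 to 0.40). Its CPM was 177, 183 and 213 in NS replicates 1, 2 and 3, and 221, 195 and 238 in WS replicates 1, 2 and 3. WS replicates 1 and 3 lay above all NS libraries, and WS replicate 2 lay below NS replicate 3, while the WS library was the higher one in each of the 3 same-numbered pairs. Without WS replicate 3 the value was 0.12. Vamp1 took 3.97% to 4.37% of the synaptobrevin level per kilobase in NS and 4.33% to 5.27% in WS, so this ratio overlapped as well.

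SNARE regulators counted 5 members, 2 above 0 and 3 below 0 (median -0.03). The highest per kilobase was Cplx1, which encodes complexin 1, a clamp and helper of the assembled SNARE complex, at 398 CPM per kilobase ± 18.7 (SD, n = 3) in NS and 419 ± 31.5 in WS. Its log2 fold change was 0.07, falling to 0.0095 without WS replicate 1, 0.0483 without NS replicate 1 and rising to 0.11 without NS replicate 3 or WS replicate 3. That of Cplx2, the complexin of most excitatory neurons, was 0.0005. Napb, which encodes the brain form of the NSF adaptor SNAP, had the largest absolute value, -0.12 (95% interval -0.28 to 0.05), with 603, 575 and 529 CPM in NS and 516, 519 and 539 in WS. WS replicate 3 lay above NS replicate 3, so these groups overlapped by these libraries, and the value was -0.0736 without NS replicate 1. Nsf, the ATPase that takes SNARE complexes apart, and Stxbp5, which encodes the inhibitory protein tomosyn, had log2 fold changes of -0.03 and -0.07.

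Active zone and priming genes counted 9 members, 5 above 0 and 4 below 0 (median 0.0061). Rab3a, which encodes the GTPase on the vesicle that binds the RIMs, was the highest per kilobase, at 397 CPM per kilobase ± 10.5 (SD, n = 3) in NS and 383 ± 51.1 in WS. Its CPM was 889, 857 and 903 in NS and 955, 871 and 730 in WS. The log2 fold change of -0.05 turned to 0.05 without WS replicate 3, so its direction rested on that library. Apart from Unc13c, the role spanned only -0.05 to 0.08. Bsn and Pclo, which encode the giant scaffolds Bassoon and Piccolo, were at 0.01 and -0.02, and Rims1, Rims2 and Rims3, the RIM scaffolds that recruit calcium channels, at 0.04, 0.02 and 0.08.

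Neurexins counted 2 members, which encode presynaptic adhesion receptors that bind neuroligins across the cleft. Nrxn2 was the higher per kilobase, at 33.1 CPM per kilobase ± 1.25 (SD, n = 3) in NS and 32.8 ± 3.48 in WS, with a log2 fold change of -0.02 (95% interval -0.21 to 0.17). Leaving out single libraries gave -0.10 to 0.04, so its direction was not settled. Nrxn3 stood at 15.2 and 15.3 CPM per kilobase, with a log2 fold change of 0.01 (95% interval -0.17 to 0.18).

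**Figure D4:**
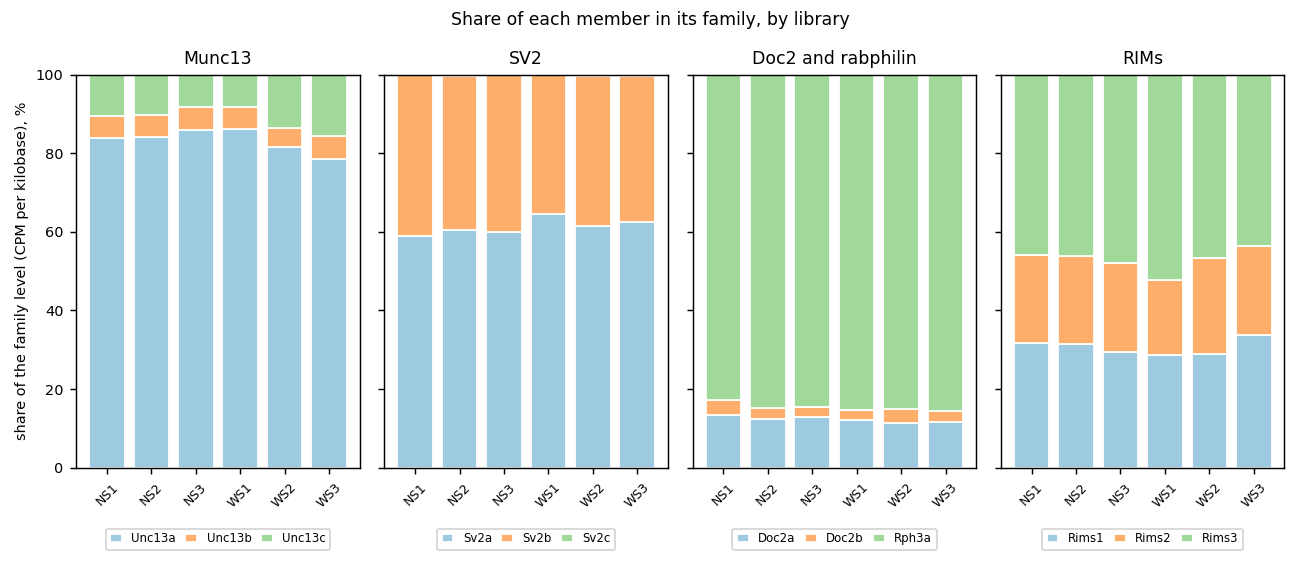
Share (vertical axis, percent) of each gene in the summed level of its family, in CPM per kilobase of exon, in the 6 libraries of 4 families. The share of Unc13c is largest in WS replicates 2 and 3, at 13.5% and 15.7%, and the share of Sv2b is below 39% in each WS library and above it in each NS library.

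Ranked by level per kilobase in NS, Vamp2 (432), Snap25 (402), Cplx1 (398) and Rab3a (397) led the machinery, and Sv2c (0.385), Unc13b (1.72) and Unc13c (2.93) closed it. The leading 4 had SDs of 23.9, 12.2, 18.7 and 10.5 CPM per kilobase, so Snap25, Cplx1 and Rab3a did not differ beyond their spread. The length used was that of all annotated exons of a gene, which can exceed its longest transcript. In Syp it was 5211 bases, with a longest transcript of 2843. In Syn1 the 2 lengths were 3299 and 3261 bases, and in Cplx1 both were 2189. The order between genes and the shares within families thus depend on the length used, which the SD between libraries does not measure. In WS the order of the leading genes was Vamp2 (433), Cplx1 (419), Snap25 (387) and Rab3a (383). Within families the leading gene was Syn1 of the synapsins (81.4% ± 1.31 of the family level in NS), Syp over Synpr (97.0% ± 0.35), Rph3a over the Doc2 genes (84.1% ± 1.20) and Syt1 of the synaptotagmins (47.3% ± 0.61), each with n = 3. The same genes led their families in WS, at 82.7%, 97.2%, 85.3% and 46.7%. In the family of Doc2 and rabphilin the shares of Rph3a and of Doc2a did not overlap between the groups, with Rph3a at 82.7% to 84.8% in NS and 85.1% to 85.6% in WS and Doc2a at 12.4% to 13.4% in NS and 11.5% to 12.2% in WS. The shares of a family sum to a fixed total, so these are not separate observations. Of the 33 shares computed, 4 did not overlap between the groups (12.1%), these and those of Sv2a and Sv2b, and all were singled out after their values were seen and were not tested.

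The spread of the members was wider in WS than in NS. The coefficient of variation between libraries had a median of 4.80% in NS and 9.45% in WS, where counting alone gives a median of 1.66%. It was higher in WS in 30 of 39 members (76.9%). Over the 11517 genes with at least the mean count of the lowest member, the medians were 6.27% and 9.09%, and 66.1% of genes were wider in WS, so the wider spread was also present across genes at large. WS replicates 1 and 3 lay further apart than the group means in 33 of 39 members, where 80.5% of all genes tested showed the same.

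WS replicates 1 and 3 differed in opposite directions from member to member. The log2 ratio of replicate 1 over replicate 3 ran from -0.92 in Unc13c and -0.90 in Sv2c to 0.49 in Stx1a and 0.51 in Syn1, and 23 of the 39 were above 0. In 13 members 1 of these libraries was the highest and the other the lowest of all 6 (33.3%, against 22.9% of all genes tested). The 10 members that were highest in replicate 1 against replicate 3 included Syn1, Stx1a, Syt5, Rab3a, Syt3 and Syp, and had a median GC content of 56.6% and a median transcript length of 2735 bases. The 10 at the other end included Unc13c, Sv2c, Pclo, Syn3, Stxbp5, Rims2 and Rims1, with a median GC content of 47.5% and a median length of 7400 bases.

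Across the 39 members the log2 ratio rose with the GC content of the longest transcript (Pearson's r of 0.59, Spearman's rho of 0.66) and fell with its length (r of -0.57, rho of -0.63, lengths on a log scale). Across 13719 genes tested r was 0.49 and -0.31, so the trend was also present across all genes. These are descriptions across genes of the same 2 libraries, which are not independent replicates. After a trend on GC content and length was removed from each library, r over the members was 0.01 with GC content and -0.16 with length. The median distance between the 2 libraries fell from 0.21 to 0.16. The trend was fitted to these same libraries, so its removal lowers such values by construction and they test nothing. In the edgeR fit with the trend removed, Unc13c was at 0.40 and Sv2b at -0.17, and Syn1 went from 0.07 to 0.01. There 0 of the 38 members other than Unc13c had an adjusted p under 0.05. The members above 0 were then 13 of 39, and the median was -0.03, where 49.4% of all genes were above 0.

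**Figure D5:**
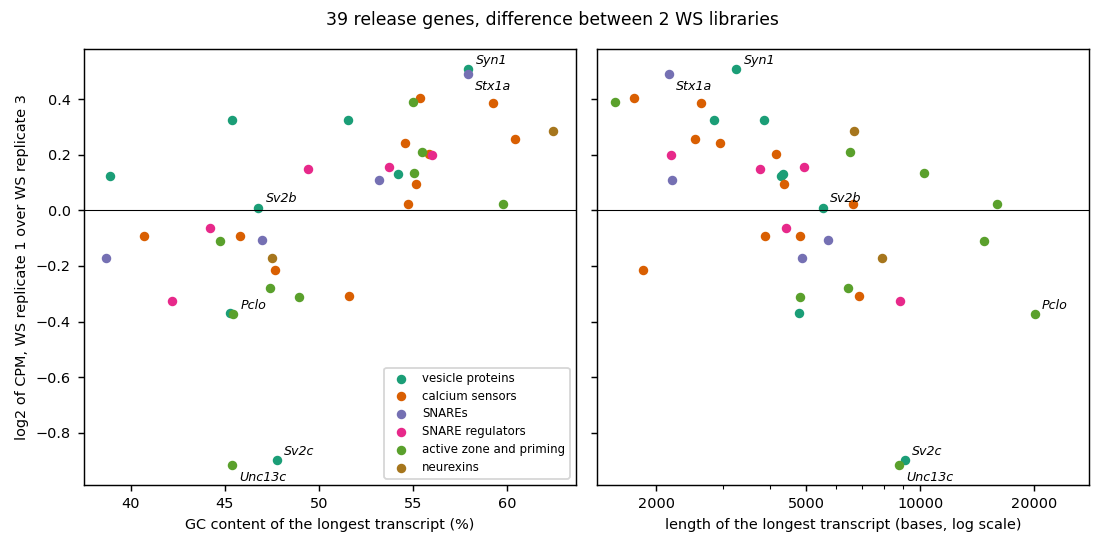
Log2 ratio of CPM in WS replicate 1 over WS replicate 3 (vertical axis) for the 39 members against the GC content (left) and the length (right, log scale) of the longest transcript, coloured by role. Members of high GC content and short transcripts lie above 0, up to 0.51 in Syn1, and Unc13c and Sv2c lie lowest, near -0.9.

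The rest of the presynaptic machinery was covered by a list of 44 further genes, all of which were tested. By edgeR's test, by DESeq2 and with the replicate block, 0 of 44 had an adjusted p under 0.05. At an unadjusted p under 0.05 there was 1 by edgeR (1.19% of all genes), 1 by DESeq2 (0.611%) and 0 with the block (1.77%). Of the 44, 18 were above 0 and 26 below 0 (median log2 fold change -0.01). The largest absolute value was in Slc32a1, which encodes the vesicular transporter of GABA, with 116, 123 and 118 CPM in NS and 149, 140 and 122 CPM in WS (log2 fold change 0.20, 95% interval 0.02 to 0.39). WS replicate 3 lay inside the NS range, and the value was 0.12 with the trend on GC content and length removed. By edgeR's test the unadjusted p was 0.035 and the adjusted p 0.9998.

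Ppfia4, which encodes a liprin of the active zone, was at 0.16 (95% interval -0.03 to 0.35), or 0.10 without WS replicate 1. The groups did not overlap in 2 of the 44 (6.27% of all genes), both lower in WS (3.16% of all genes). Napg, which encodes gamma-SNAP, a further NSF adaptor, had 195, 189 and 184 CPM in NS and 162, 179 and 174 in WS (log2 fold change -0.14). Sh3gl2, which encodes endophilin A1 of vesicle endocytosis, had 361, 353 and 360 CPM in NS and 337, 347 and 312 in WS (log2 fold change -0.11, or -0.0664 without WS replicate 3). Neither passed the test at an unadjusted p under 0.05.

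Markers of the cells in the tissue were read beside these values. The 10 neuron markers summed to 4863 to 4889 CPM in NS and 4763 to 5047 CPM in WS, and the 11 cortical layer markers to 600 to 650 CPM in NS and 630 to 647 CPM in WS, so both were present at near equal levels. The 6 inhibitory markers, among them Slc32a1, summed to 1001 to 1038 CPM in NS and 1064 to 1154 CPM in WS, which did not overlap. Their members did not share 1 order within WS, where Gad2 was highest in replicate 3 (198 CPM) and Sst lowest there (250 CPM). The sums of the 8 endothelial markers (158 to 163 CPM in NS and 179 to 212 CPM in WS) and of the 7 microglia markers (404 to 423 CPM in NS and 424 to 438 CPM in WS) did not overlap either. Of all ways to split 6 libraries 3 against 3, 10% do not overlap, and 6.27% of all genes tested did not. The microglia sums reached 422.7 CPM in NS and began at 423.7 CPM in WS. Among the endothelial markers Pecam1 had a log2 fold change of 0.87, and the others ran from 0.0024 in Tie1 to 0.25 in Kdr. The sum of the 10 astrocyte markers was lowest in NS replicate 3, where Gja1 was at 21.6 CPM, against 183 to 233 CPM in the other libraries. It was highest in WS replicate 3 (5935 CPM, against 4587 to 5100 CPM in the other libraries). Slc1a2 alone was at 3326 CPM there, against 2506 to 2862, while Aldoc, S100b, Aldh1l1 and Sox9 were highest in WS replicate 1. The sums of the 5 thalamic markers (184 CPM, against 131 to 159) and the 4 dentate markers (34.7 CPM, against 21.4 to 27.9) were also highest in WS replicate 3, although the thalamic marker Prkcd was at its lowest there (7.96 CPM). The members highest in WS replicate 3 were Syn3, Sv2c, Syt2, Vamp1, Stxbp5, Unc13b, Unc13c, Rims1, Rims2 and Pclo. More members than these were highest in WS replicate 1. The 9 striatal markers were highest in WS replicate 2 (741 CPM, against 348 to 494), and the 8 oligodendrocyte markers lowest in NS replicate 1 (8300 CPM, against 9882 to 13230). The log2 fold change was above 0 in 10 of 10 astrocyte, 8 of 8 oligodendrocyte, 8 of 8 endothelial, 9 of 9 striatal and 5 of 5 thalamic markers, and in 6 of 10 neuron, 7 of 11 cortical layer, 5 of 6 inhibitory, 6 of 7 microglia, 1 of 3 tested dentate and 2 of 3 tested cerebellar markers. Of all genes tested, 53% lay above 0. Markers of 1 list were read in the same 6 libraries, so these counts are not of separate observations. The striatal sum was 741 CPM in WS replicate 2 but 361 and 348 CPM in WS replicates 1 and 3, against 355 to 494 CPM in NS. The thalamic sum lay above every NS library only in WS replicate 3. No marker of these lists had an adjusted p under 0.05, and the part of these differences in the values of the release genes was not tested.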

How the data were processed

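S1 cortex RNA was sequenced on a DNBseq platform, and the authors aligned the reads with HISAT2, on mm10 per the labels. How reads were counted, and whether by strand, is not given in the sources used here. The authors deposited for each gene the mean over 6 libraries as an estimated count, its SD, and a score per library (the z-score). The deposited columns of the authors' own comparison (fold change, p and FDR) were not used. Counts were computed back as mean plus z-score times SD and rounded to whole numbers. In 13418 genes whose rounding error was below 0.1 count, 91.0% of values came out whole within 0.1. The column for WS replicate 3 carries in its name an added letter N, as the NS columns do, and was assigned by the authors' WS mean, which includes it.

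Genes were filtered with filterByExpr, normalized by TMM and tested with edgeR 4.0.16 (quasi-likelihood, Benjamini-Hochberg adjustment) in R 4.3.3, and with DESeq2 1.42.0 as an alternative. Summaries used Python 3.11.15, SciPy 1.17.1 and matplotlib 3.10.9. The biological coefficient of variation was 10.1%. The fit was tested on simulated data. Positions, exon length and GC content came from GENCODE M21 (GRCm38), and promoters from RefSeq. Libraries with the same label number deviated together from their group means (r of 0.34, 0.23 and 0.12 over 13688 genes), so the numbers were taken to pair the samples and a fit blocked on this number was run beside the planned one.

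The members, gene lists and rules were chosen with earlier results of these data known. Named are Unc13c, members that do not overlap between groups or have an unadjusted p under 0.05, the highest per length and the largest change in each role, and of the other presynaptic genes those that do not overlap and the 3 largest changes, of which 1 is not reported here. Further members are named for their role, some after their values were seen. Alternatives were other normalizations and filters, DESeq2, the block, each library left out, and removal of a trend on GC content and length, which was chosen after seeing the data.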

Additional observations from a re-analysis of the deposited data

How the results depend on the processing

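The count of 0 members called, leaving aside Unc13c, and of 0 of the 44 other presynaptic genes called, held under every alternative run. At an unadjusted p under 0.05 the counts were 1 member, 1 other gene and 164 of all genes. Of all genes, 5 were called in the main edgeR fit, 8 by DESeq2, 11 with the replicate block and 0 to 9 as single libraries were left out (0 without NS replicate 2 or NS replicate 3, 3 without NS replicate 1, 9 without WS replicate 1). With the replicate block, which follows the pairing of the libraries by number, the member at an unadjusted p under 0.05, leaving aside Unc13c, was Syt17 in place of Sv2b, and the block changed no call of these 38. The members above 0 numbered 12 to 22 of 39 as libraries were left out, with the lowest count without NS replicate 3, and their median ran from -0.04 to 0.02. Of the 38 members other than Unc13c, 3 had an unadjusted p under 0.05 with the trend on GC content and length removed (Sv2b, Syt17 and Vamp1, where 2.24% of all genes passed) and 0 to 3 did as libraries were left out, with 3 without WS replicate 1 (Sv2b, Sv2c and Syt17, where 3.09% passed). Of 16 named genes, the direction of 4 turned. Leaving out libraries gave -0.06 to 0.19 for Syn1, -0.0307 to 0.0512 for Vamp2, -0.14 to 0.0481 for Rab3a and -0.10 to 0.0408 for Nrxn2, and Vamp2 was at -0.0072 with the GC and length trend removed. With that trend removed, Ppfia4 was at 0.0971, Sh3gl2 at -0.0702, Nrxn2 at -0.12, Cplx1 at 0.0392, Rab3a at -0.0788, Syn1 at 0.0074 and Slc32a1 at 0.12. The cause was not tested. Depth limits Sv2c most, the member of the fewest counts, with 48 to 98 per library.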
